A study of Homo sapiens with 16 samples.

Results

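In A673 Ewing sarcoma cells given doxycycline to silence EWS-FLI1, most of the detected replication-dependent histone genes were higher at 36 and 53 h. Most other histone variants were lower. This holds for probe sets with 1 gene symbol, and histone probe sets with several symbols are counted apart below. Against 0 h, 8 of 11 tested probe sets for cluster histone genes were higher and 0 lower at 36 h, while of 14 tested probe sets for other variants 0 were higher and 11 were lower. Of all probe sets tested, 31.1% were called higher and 31.6% lower at that time. By 96 h 0 of the 11 cluster probe sets were higher and 5 were lower, against 24.1% and 34.0% of all probe sets. The count of lower probe sets is not far from that share and depended on single arrays. All 5 belonged to H2B genes, and most were of a type that can bind several transcripts. The histone genes were taken as all probe sets annotated to exactly 1 gene symbol that starts with H1-, H2A, H2B, H3-, H3C, H4-, H4C or MACROH2A. This gave 51 genes on 60 probe sets, out of 11963 genes with a probe set of their own and 22277 probe sets in all. A numbered cluster symbol (H1-1 to H1-6, H2AC, H2BC, H3C or H4C) put 41 genes and 42 probe sets among the replication-dependent genes. The other 10 genes, on 18 probe sets, formed the group of other variants. The symbol alone decided the class, so H2AC25 and H2BC12L, which lie outside the large histone clusters, were counted with the cluster genes.

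The cells were clone Asp14 of A673, an established Ewing sarcoma line that carries the EWS-FLI1 fusion. Every array came from this 1 clone, which holds the inducible knockdown construct and was kept under zeocin, for the shRNA vector, and blasticidin, for the vector labelled TR. The 4 control arrays were collected at 0 h, when doxycycline was added, and the treated arrays at 18 h (3 arrays), 36 h (3 arrays), 53 h, 72 h and 96 h (2 arrays each) after 1 µg/ml doxycycline. No untreated array was taken later than 0 h. The effects of losing the fusion, of doxycycline and of added hours in culture therefore cannot be told apart. The labels number the arrays within a time without saying whether they were separate cultures, so p-values measure only the spread between these arrays, which may be technical.

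A nucleosome wraps DNA around pairs of the core histones H2A, H2B, H3 and H4, and linker histone H1 binds where the DNA enters and leaves. Replication-dependent histone genes are transcribed mainly in S phase, and their mRNAs end in a stem-loop bound by SLBP in place of a poly(A) tail. The other variants replace core or linker histones throughout the cell cycle and are made from ordinary polyadenylated mRNAs, although H2AX is known to give both kinds of mRNA and some cluster genes can also give polyadenylated transcripts. The labelling chemistry used here primes from the poly(A) tail, and which kind of transcript gave each cluster signal was not tested.

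The promoters of 6 genes on which the results turn are shown, to set cluster genes that were higher at 36 h beside variants that were lower. Each is the stretch of 250 bases before the annotated start, from the RefSeq promoter table for GRCh38.p14, written along the gene's strand. H2AC6 (chr6:26123922-26124171) and H2BC5 (chr6:26157871-26158120) are on the plus strand. H2BC21 (chr1:149886683-149886932), H1-2 (chr6:26056471-26056720), H2AX (chr11:119095466-119095715) and H2AZ1 (chr4:99950276-99950525) are on the minus strand. Capitals mark CCAAT (the CCAAT box), TATAAA (the TATA box) and ATTTGCAT (the octamer) on either strand.
H2AC6: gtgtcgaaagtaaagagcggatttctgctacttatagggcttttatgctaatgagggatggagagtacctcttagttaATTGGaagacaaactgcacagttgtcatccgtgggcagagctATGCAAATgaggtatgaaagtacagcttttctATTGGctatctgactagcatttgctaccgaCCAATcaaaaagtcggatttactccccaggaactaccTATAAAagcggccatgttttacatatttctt
H2BC21: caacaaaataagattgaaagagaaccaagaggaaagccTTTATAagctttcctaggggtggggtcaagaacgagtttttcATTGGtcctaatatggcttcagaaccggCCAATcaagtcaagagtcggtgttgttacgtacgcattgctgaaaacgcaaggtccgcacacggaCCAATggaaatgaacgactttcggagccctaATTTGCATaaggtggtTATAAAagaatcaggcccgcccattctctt
H2BC5: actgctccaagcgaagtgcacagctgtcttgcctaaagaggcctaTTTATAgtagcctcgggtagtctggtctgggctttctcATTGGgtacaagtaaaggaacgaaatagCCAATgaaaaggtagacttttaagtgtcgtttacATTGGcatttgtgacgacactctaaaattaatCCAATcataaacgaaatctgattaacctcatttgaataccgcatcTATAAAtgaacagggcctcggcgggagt
H1-2: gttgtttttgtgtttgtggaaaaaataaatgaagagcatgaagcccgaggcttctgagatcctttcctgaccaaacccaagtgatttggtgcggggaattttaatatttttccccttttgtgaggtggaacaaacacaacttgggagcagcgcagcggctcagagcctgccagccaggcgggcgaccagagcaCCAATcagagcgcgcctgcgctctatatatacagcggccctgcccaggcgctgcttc
H2AX: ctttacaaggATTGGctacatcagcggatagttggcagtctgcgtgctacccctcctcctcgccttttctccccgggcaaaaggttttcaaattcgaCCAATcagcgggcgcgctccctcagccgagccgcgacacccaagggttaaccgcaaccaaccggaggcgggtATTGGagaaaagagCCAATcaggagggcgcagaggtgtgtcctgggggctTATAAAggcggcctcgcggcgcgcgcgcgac
H2AZ1: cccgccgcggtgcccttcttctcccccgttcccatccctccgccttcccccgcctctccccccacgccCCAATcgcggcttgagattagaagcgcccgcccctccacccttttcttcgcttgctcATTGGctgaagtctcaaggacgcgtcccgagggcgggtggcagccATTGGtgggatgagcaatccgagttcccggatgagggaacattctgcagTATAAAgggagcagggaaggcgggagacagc
The table held a promoter for 48 of the 51 genes and for 16 of the 17 genes with a tested probe set. CCAAT stood in 90.9% of the 11 promoters of tested cluster genes, in 63.6% of the 11 promoters of tested variants and in 32.0% of the 35116 promoters in the table. TATAAA stood in 72.7%, 27.3% and 10.7% of these, and the octamer ATTTGCAT in 54.5%, 0% and 1.63%. Neither TTTGGCGC nor TTTCCCGC, forms of the E2F site, was found in a tested histone promoter, against 1.93% of all promoters. GGAAGGAA, a pair of the GGAA units that ETS factors bind, was found in 0% of them and in 3.06% of all promoters. In the 30 promoters of cluster genes with no tested probe set the shares were 86.7% for CCAAT, 63.3% for TATAAA and 30.0% for the octamer. Some genes counted with several promoters, 2 each for H2BC12, H2BC5 and MACROH2A1 and 4 for H3-3A. Counted by gene, with a match in any promoter, CCAAT stood in 8 of 9 tested cluster genes and 5 of 7 tested variants, against 37.0% of the 27305 genes in the table. TATAAA stood in 6 of 9 and 3 of 7, against 13.0%, and the octamer in 5 of 9 and 0 of 7, against 2.03%. Both strands were searched and overlapping matches were allowed, and a match is a description of letters, not a bound site.

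The values were the authors' log2 intensities after GCRMA, an array normalization that corrects background by probe sequence. Levels of different genes were not compared. Among the probe sets of 1 gene, the mean level served only to choose the brightest and to call others dimmer. A probe set was tested where it reached log2 4 on at least 2 of the 16 arrays, which held for 25 of the 60 histone probe sets (41.67%) and 55.17% of all non-control probe sets. Cluster genes passed for 10 of 41 genes, on 11 probe sets. By family, 1 of 6 H1, 2 of 8 H2A, 6 of 12 H2B, 0 of 7 H3 and 1 of 8 H4 cluster genes passed. Of the other variants 7 of 10 genes passed, on 14 probe sets. Since a probe set could pass through the time at which it was high, the tested members are not all members.

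The 31 cluster genes without a tested probe set were H1-1, H1-3, H1-4, H1-5 and H1-6 of the linker family, H2AC4, H2AC8, H2AC14, H2AC15, H2AC16 and H2AC17 of the H2A family, and H2BC3, H2BC11, H2BC13, H2BC14, H2BC15 and H2BC17 of the H2B family. They also included H3C1, H3C2, H3C3, H3C6, H3C7, H3C8 and H3C11 for H3 and H4C1, H4C4, H4C5, H4C7, H4C8, H4C9 and H4C13 for H4. The variants without one were H2AJ, H2AP and H3-4. Of the 35 probe sets that failed, 32 stayed below log2 4 on all 16 arrays, with 3.587 as their highest value. The other 3 each reached log2 4 on 1 array, and for all of them it was replicate 1 of 36 h, with H2AC17 at 5.03, H2AC8 at 4.78 and H2AJ at 4.26. A further 29 histone probe sets carry several symbols and were left out. Of these 17 were tested, and limma called 0 at 18 h (also 0 at an unadjusted p under 0.05). Of all probe sets 12.8% were then called higher and 14.0% lower. At 36 h 11 were higher and 1 lower, against 31.1% and 31.6% of all probe sets. At 53 h 8 were higher and 1 lower, against 30.7% and 32.9%. At 72 h 5 were higher and 2 lower, against 29.5% and 36.7%. At 96 h 0 were higher and 3 lower, against 24.1% and 34.0%. From 72 to 96 h 1 was higher and 4 lower, against 14.5% and 10.3%. These probe sets were not split into cluster genes and other variants, so the contrast between the classes was not read on them.

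**Figure D1:**
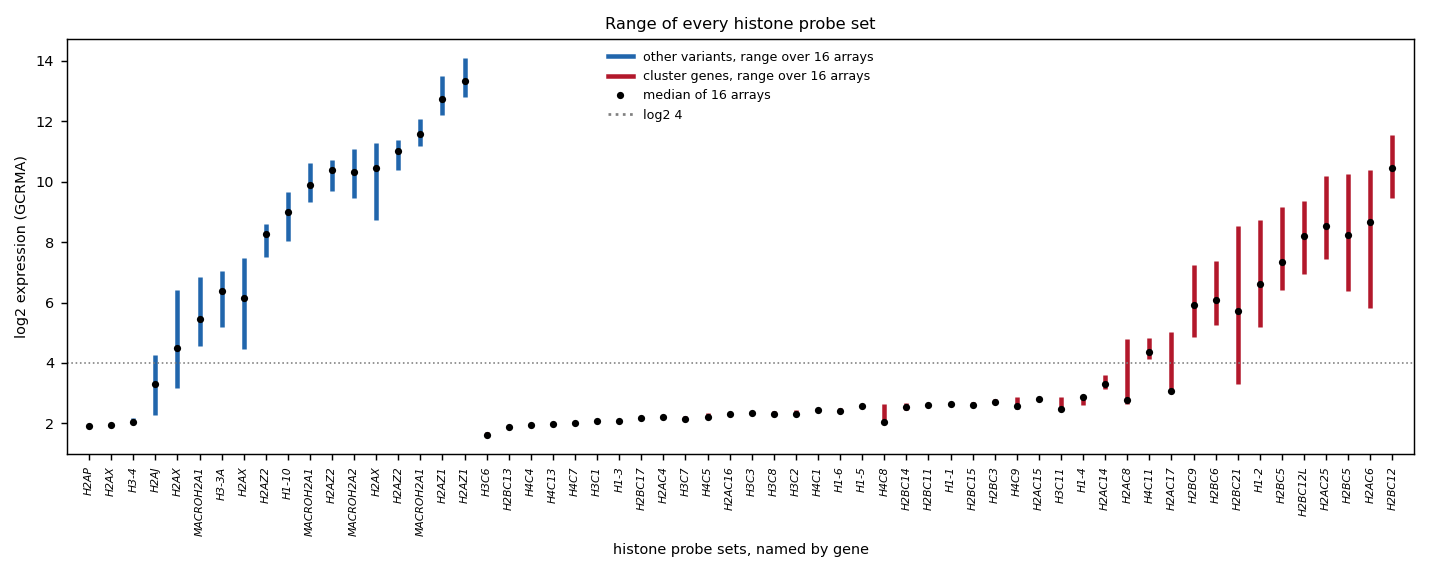
Range (bars) and median (points) of log2 expression over the 16 arrays for each of the 60 histone probe sets, named by gene and split into other variants (blue) and cluster genes (red). The dotted line is log2 4, and most cluster probe sets lie below it while the tested ones span up to several log2 units.

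Across the arrays the upper quartile of all probe sets lay between 8.079 and 8.175. FLI1, whose probe set reads the fusion partner, fell by 3.20, 3.67, 3.28, 3.08 and 3.35 on the log2 scale at 18, 36, 53, 72 and 96 h. All 6 measured markers of the Ewing sarcoma line (of 7 listed) reached log2 4 on all 16 arrays. All 4 blood and 5 epithelial markers, and 4 of the 5 endothelial markers, stayed below it, the exception being KDR, at 3.44 to 8.65. Arrays 2 and 3 of 0, 18 and 36 h differed from each other by a root mean square of only 0.179 to 0.196 log2, against at least 0.252 for every other pair of arrays of one time, so they may share an RNA. Results with each such pair averaged are given where they change a call.

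The cluster genes were described first by the H2B family, whose protein pairs with H2A in the nucleosome core. H2BC21, an H2B gene of the chromosome 1 cluster, moved most. It read 3.90, 3.93, 3.30 and 4.46 at 0 h, 7.12, 4.36 and 4.19 at 18 h, and 8.52, 7.69 and 7.60 at 36 h. It then read 7.29 and 7.04 at 53 h, 6.14 and 6.25 at 72 h, and 4.16 and 5.31 at 96 h. The 36, 53 and 72 h arrays all lay above every 0 h array, whereas the 18 and 96 h arrays overlapped them. H2BC21 rose by 4.04 ± 0.57 (SE, n = 3 against 4) at 36 h, a 16.4-fold increase (limma adjusted p = 3.235e-05). The rise was 3.27 ± 0.65 at 53 h (limma adjusted p = 0.0005625) and 2.30 ± 0.65 at 72 h (limma adjusted p = 0.006357). At 0 h only 1 of its 4 arrays reached log2 4, so these sizes rest on a start near background.

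H2BC5 is an H2B gene of the chromosome 6 cluster. Its brightest probe set read 7.93, 7.05, 6.97 and 8.24 at 0 h, 8.68, 6.52 and 6.71 at 18 h, and 10.25, 9.71 and 9.52 at 36 h. It read 9.68 and 9.43 at 53 h, 8.24 and 8.40 at 72 h, and 6.40 and 6.69 at 96 h. The 36 and 53 h arrays lay above all 0 h arrays, and the 96 h arrays lay below them. H2BC5 rose by 2.28 ± 0.45 at 36 h (limma adjusted p = 0.0005134) and by 2.01 ± 0.50 at 53 h (limma adjusted p = 0.003277). At 96 h it was 2.01-fold lower than at 0 h, which did not pass (limma adjusted p = 0.1046). Its second probe set rose by 1.14 and 1.15 at 36 and 53 h and fell by 0.97 at 96 h, where it passed (limma adjusted p = 0.03078).

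H2BC12, another H2B gene of the chromosome 6 cluster, read 10.58, 10.31, 10.16 and 10.87 at 0 h and 11.48, 10.95 and 10.69 at 36 h. It read 11.53 and 11.24 at 53 h and 9.50 and 9.47 at 96 h. The 36 h arrays overlapped those of 0 h, the 53 h arrays lay above and the 96 h arrays below. The change at 36 h, 0.56 ± 0.24, did not pass (limma adjusted p = 0.05523), and with the replicate number as a block it was 0.69 and passed (adjusted p = 0.003054). Replicate 4 exists only at 0 h, so the block in effect leaves out that array, the highest of 0 h for this gene. H2BC12 rose by 0.90 ± 0.27 at 53 h (limma adjusted p = 0.009812) and fell by 0.99 ± 0.27 at 96 h (limma adjusted p = 0.006207). Without replicate 1 of 53 h the 53 h change was 0.76 and did not pass (adjusted p = 0.09241).

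H2BC12L, H2BC6 and H2BC9, also H2B genes, showed smaller changes. H2BC12L changed by 0.64 at 36 h without passing, rose by 0.86 ± 0.35 at 53 h (limma adjusted p = 0.04609) and fell by 1.10 ± 0.35 at 96 h (limma adjusted p = 0.01559). Its replicate block value at 36 h was 0.82 and passed (adjusted p = 0.003252), again in effect without replicate 4 of 0 h. H2BC6 rose by 0.78 ± 0.28 at 36 h (limma adjusted p = 0.02395) and by 0.78 ± 0.31 at 53 h (limma adjusted p = 0.04352), although the arrays overlapped those of 0 h, and it fell by 0.91 at 96 h. H2BC9 rose by 0.65 ± 0.24 at 36 h (limma adjusted p = 0.02992) and fell by 0.87 and 1.01 at 72 and 96 h. H2BC9 was the only cluster gene below its 0 h level at 72 h by this test. These calls stood near the threshold. Those of H2BC12L and H2BC6 at 53 h were lost without any 1 of replicates 1 to 3 of 0 h, replicate 2 of 36 h, replicate 1 of 53 h (0.79 and 0.52) or any array of 72 or 96 h, and when arrays 2 and 3 were averaged (0.74 and 0.70). That of H2BC12L was also lost without replicate 2 of 53 h (0.93, adjusted p = 0.1164). At 36 h H2BC6 was lost without replicate 3 of 0 h (0.66), replicate 1 of 36 h (0.57) or replicate 2 of 36 h (0.76), and with arrays 2 and 3 averaged (0.82, adjusted p = 0.05372). H2BC9 was lost there without replicate 1, 2 or 3 of 0 h (0.62, 0.64 and 0.56) or replicate 1 of 36 h (0.34), and at 72 h without either 72 h array. At 96 h H2BC12L was lost without replicate 2 of 96 h (-0.87), H2BC9 without replicate 1 of 96 h (-0.91), and H2BC6 without replicate 4 of 0 h (-0.73) or either 96 h array (-0.89 and -0.93). H2B genes are near copies of each other, and the probe sets of these genes are of the type that can bind several transcripts. The same type holds for 6 of the 11 cluster probe sets in all (H4C11 among them). The split between H2BC5, H2BC6, H2BC9 and H2BC12L is therefore uncertain. The names of the H2BC21 and H2AC6 probe sets mark shared probes. Whether they read these genes alone was not tested.

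The H2A family supplied H2AC6 and H2AC25. H2AC6 lies in the chromosome 6 cluster and read 7.90, 7.09, 6.72 and 8.64 at 0 h, 8.70, 5.83 and 6.24 at 18 h, and 10.38, 10.33 and 10.08 at 36 h. It read 10.09 and 9.85 at 53 h, 8.75 and 8.69 at 72 h, and 6.08 and 6.64 at 96 h. The arrays of 36, 53 and 72 h lay above all 0 h arrays and those of 96 h below them. H2AC6 rose by 2.67 ± 0.57 at 36 h, 6.38-fold (limma adjusted p = 0.000971), and by 2.38 ± 0.64 at 53 h (limma adjusted p = 0.005265). Its changes at 72 h, 1.13 ± 0.64, and at 96 h, -1.22 ± 0.64, did not pass (limma adjusted p = 0.1375 and 0.1193), and both passed without replicate 1 of 18 h (adjusted p = 0.02315 and 0.01784). H2AC25 read 8.33, 8.16, 8.18 and 8.58 at 0 h and 9.89, 10.19 and 9.89 at 36 h, with no overlap. It rose by 1.68 ± 0.25 at 36 h (limma adjusted p = 5.86e-05) and by 1.22 ± 0.29 at 53 h (limma adjusted p = 0.002094).

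H1-2, a linker histone gene, read 6.14, 5.82, 6.00 and 6.51 at 0 h, 7.33, 5.62 and 5.77 at 18 h, and 8.73, 7.46 and 7.44 at 36 h. It read 8.26 and 7.81 at 53 h, 6.73 and 6.95 at 72 h, and 5.19 and 6.01 at 96 h. The 36 to 72 h arrays all lay above those of 0 h. H1-2 rose by 1.76 ± 0.40 at 36 h (limma adjusted p = 0.001752) and by 1.91 ± 0.46 at 53 h (limma adjusted p = 0.002346), a 3.77-fold increase. H4C11, the H4 gene that passed the filter, lay between 4.14 and 4.82 on all 16 arrays and passed at no time. Its moderated F test over the 5 treated times gave an adjusted p of 0.2695.

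**Figure D2:**
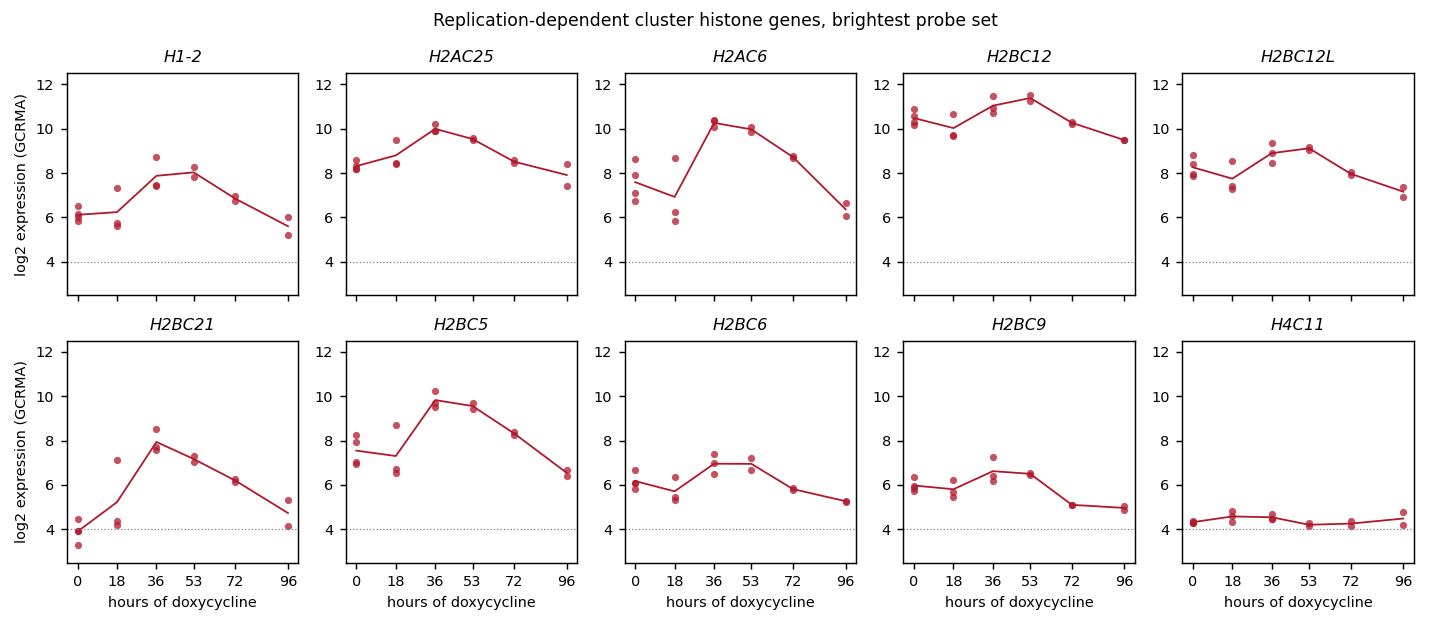
Log2 expression of the 10 tested cluster histone genes (brightest probe set) against hours of doxycycline. Points are single arrays, lines join time means and the dotted line is log2 4; H2BC21, H2AC6, H2BC5, H1-2 and H2AC25 peak at 36 or 53 h and return toward or below their 0 h level by 96 h, and H4C11 stays between 4.14 and 4.82.

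Counted together, 8 cluster probe sets of 11 rose and 0 fell at 36 h, when 31.1% of the 12257 probe sets tested were called higher and 31.6% lower. Their median change was 1.14, against 0.01 for all probe sets. At 53 h 9 rose and 0 fell, with a median of 1.15 against -0.01 for all, of which 30.7% were called higher and 32.9% lower. Without replicate 1 of 53 h, the higher of its pair for all 11 cluster probe sets, 5 rose. At 72 h 1 (H2BC21) rose and 1 (H2BC9) fell, against 29.5% and 36.7% of all probe sets, and the median was -0.06 against -0.08. Without replicate 1 of 18 h, which enters through the shared spread, 3 rose at 72 h, H2AC6 and H2BC5 with H2BC21. At 96 h 0 rose and 5 fell, against 24.1% and 34.0%, with a median of -0.97 against -0.10 for all. These 5 covered H2BC12, H2BC12L, H2BC6, H2BC9 and the second probe set of H2BC5. The count at 96 h was 3 without replicate 4 of 0 h, 2 without replicate 1 of 96 h and 3 without replicate 2 of 96 h. Over the time course 10 of 11 changed by the F test, against 81.1% of all probe sets. All comparisons against 0 h share the same 4 control arrays. Counts with an array left out are given without the share of all probe sets called in the same fit.

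A measure of RNA quality was above its 0 h range at 36 h and overlapped it at 53 h. The 3′ minus 5′ difference of the ACTB control probe sets, which grows as RNA degrades, was 1.47 to 2.06 at 0 h, 1.88 to 2.00 at 18 h, 2.09 to 2.45 at 36 h and 1.83 to 2.34 at 53 h. It was 1.61 to 1.70 at 72 h and 1.56 to 1.83 at 96 h. Its part in the histone changes was not tested. In these bulk samples, fewer cells in S phase and less RNA per cell cannot be told apart.

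At 18 h limma called 0 of the 11 cluster probe sets higher and 0 lower (1 and 0 at an unadjusted p under 0.05), when 12.8% of all probe sets were called higher and 14.0% lower. The median change was -0.24, against 0.01. The 3 arrays differed: replicate 1 was the highest of its time for 11 of 11 cluster probe sets, as for H2BC21 at 7.12 beside 4.36 and 4.19. Against its same-numbered 0 h array, replicate 1 was higher for 11 of 11 with a median difference of 0.64, whereas replicate 2 was higher for 3 (median -0.33) and replicate 3 for 2 (median -0.26). Over all tested probe sets replicate 1 also lay nearer to the 36 h arrays, at 0.688 to 0.712 root mean square log2, than replicates 2 and 3 did, at 0.767 to 0.897. Without replicate 1, 3 cluster genes fell at 18 h, H2AC6 by 1.55 (limma adjusted p = 0.01865), H2BC12 by 0.76 and H2BC12L by 0.92. Without replicate 3, H2BC21 rose by 1.84 (limma adjusted p = 0.0439). The shares of all probe sets called in these fits are not given here. Among the 0 h arrays, replicate 4 was the highest for 10 of the 11 probe sets. At 36 h all 3 same-numbered pairs were higher for 11 of 11, with median differences of 1.56, 1.08 and 1.01. The numbers cannot be shown to pair the arrays, and arrays 2 and 3 may share an RNA. The 3 differences are therefore not separate checks. The same differences were not taken over all probe sets.

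**Figure D3:**
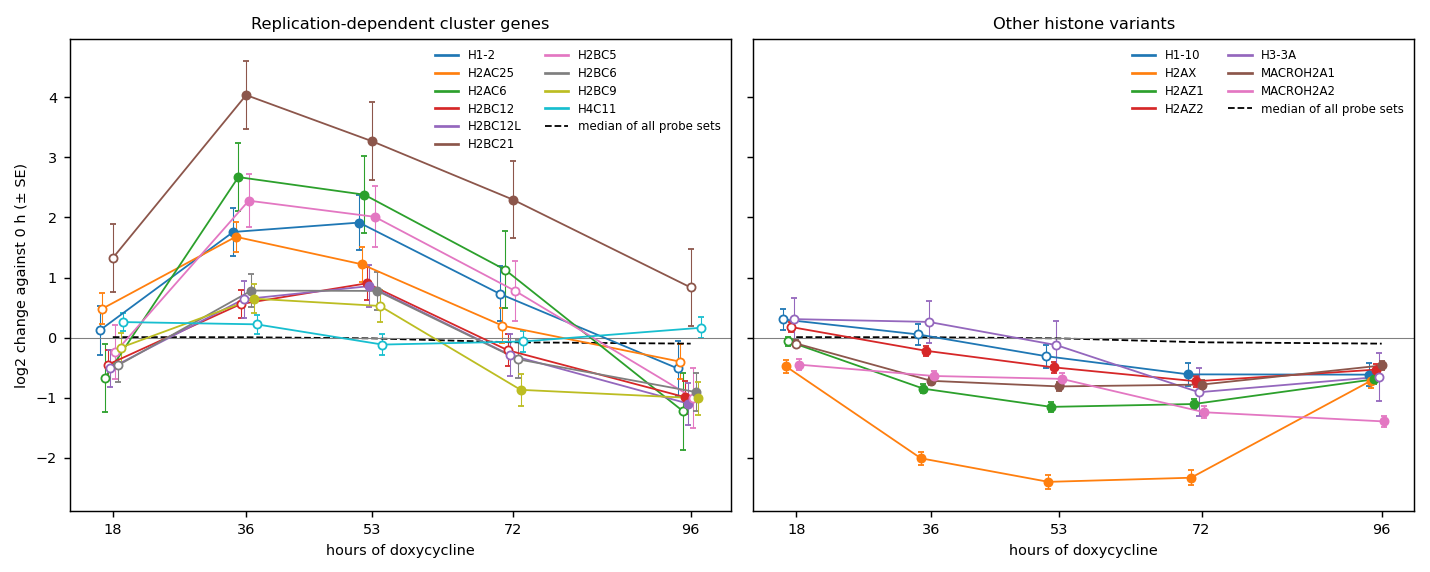
Log2 change against 0 h (± SE) of each tested histone gene at 5 times, cluster genes left and other variants right, for the brightest probe set. Filled points passed the limma threshold, open points did not, and the dashed line is the median of all probe sets; at 36 h the cluster changes run from 0.22 to 4.04 and those of the variants from -2.01 to 0.26.

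Among the other variants, H2AX, the H2A form that is phosphorylated around DNA breaks, fell furthest at 36, 53 and 72 h. Its brightest probe set read 11.17, 11.29, 11.18 and 10.98 at 0 h, 10.46, 10.77 and 10.80 at 18 h, and 8.93, 9.21 and 9.30 at 36 h. It read 8.79 and 8.71 at 53 h, 8.80 and 8.85 at 72 h, and 10.47 and 10.41 at 96 h. No treated array overlapped the 0 h arrays. H2AX fell by 0.48 ± 0.11 at 18 h (limma adjusted p = 0.00552), by 2.01 ± 0.11 at 36 h (limma adjusted p = 5.947e-09) and by 2.40 ± 0.12 at 53 h, a 5.29-fold decrease. The fall was 2.33 ± 0.12 at 72 h (limma adjusted p = 1.956e-09) and 0.72 ± 0.12 at 96 h (limma adjusted p = 0.000202). Its 2 dimmer tested probe sets fell by 1.63 and 2.65 at 36 h and by 2.53 and 2.62 at 72 h, and one of them was below log2 4 on every array from 36 to 72 h, which bounds its fall. The remaining H2AX probe set stayed below log2 4 throughout. Over the mean of its probe sets the 18 h fall was 0.44 and did not pass (adjusted p = 0.05231).

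H2AZ1 and H2AZ2 encode the H2A.Z proteins, found at promoters and enhancers. H2AZ1 read 13.95 to 14.08 on the 0 h arrays and 13.09, 13.03 and 13.27 at 36 h. It read 12.86 and 12.80 at 53 h, 12.87 and 12.88 at 72 h, and 13.38 and 13.20 at 96 h. From 36 h on no array overlapped those of 0 h. H2AZ1 fell by 0.85 ± 0.07 at 36 h (limma adjusted p = 3.343e-07), by 1.15 ± 0.08 at 53 h and by 1.11 ± 0.08 at 72 h (limma adjusted p = 5.662e-08). Its other probe set fell by 1.03, 1.26 and 1.24 at these times. For H2AZ2 the probe sets differed in timing. The brightest fell by 0.22 at 36 h (limma adjusted p = 0.03034), by 0.50 at 53 h and by 0.73 ± 0.09 at 72 h (limma adjusted p = 1.032e-05). The other 2 fell by 0.77 and 0.91 at 36 h and by 0.59 and 0.73 at 53 h, and showed -0.12 each at 72 h without passing. With the replicate block, in effect without replicate 4 of 0 h, the 36 h change of the brightest was -0.21 and no longer passed (adjusted p = 0.062). It was also lost with arrays 2 and 3 averaged (-0.18) and without replicate 1, 2 or 4 of 0 h or replicate 2 or 3 of 36 h (-0.14 to -0.22).

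MACROH2A1 and MACROH2A2 encode large H2A variants with an added macro domain. MACROH2A2 read 11.09, 10.94, 10.75 and 10.88 at 0 h, 10.60, 10.37 and 10.42 at 18 h, and 10.28, 10.30 and 10.25 at 36 h. It read 10.32 and 10.13 at 53 h, 9.68 and 9.66 at 72 h, and 9.59 and 9.45 at 96 h. Every treated array lay below every 0 h array. MACROH2A2 fell by 0.45 ± 0.09 at 18 h (limma adjusted p = 0.002258), by 1.24 ± 0.10 at 72 h (limma adjusted p = 1.046e-07) and by 1.40 ± 0.10 at 96 h (limma adjusted p = 8.122e-08). For MACROH2A1 the probe sets disagreed in direction. The brightest fell by 0.72, 0.81, 0.78 and 0.46 from 36 to 96 h, and a second fell by 0.95, 0.91, 0.83 and 0.54. The third, much dimmer, read 4.55, 4.94, 4.74 and 5.16 at 0 h, 5.82 and 6.80 at 53 h and 6.72 and 6.83 at 72 h. It rose by 1.46 ± 0.25 at 53 h (limma adjusted p = 0.0001873) and by 1.93 ± 0.25 at 72 h (limma adjusted p = 1.372e-05). The third is also the only one of the 3 whose name does not mark shared or cross-matching probes, so no single direction is given for MACROH2A1. Which transcripts each probe set reads was not tested.

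H1-10, a linker variant, lay at 8.89 to 9.23 at 0 h and at 8.34 and 8.53 at 72 h and 8.03 and 8.83 at 96 h. It fell by 0.61 ± 0.19 at 72 h (limma adjusted p = 0.01179) and by 0.62 ± 0.19 at 96 h (limma adjusted p = 0.01331). Without replicate 1 of 72 h the first was -0.52 (adjusted p = 0.1024), and without replicate 1 of 96 h the second was -0.22 (adjusted p = 0.3441). H3-3A, which encodes the replacement histone H3.3, read 6.59, 6.42, 6.43 and 5.52 at 0 h and 5.43 and 5.22 at 72 h. The change at 72 h, -0.91 ± 0.40, did not pass (limma adjusted p = 0.06022). With the replicate block, which in effect leaves out replicate 4 of 0 h, it was -1.19 and passed (adjusted p = 0.01619). Leaving out that low array directly gave -1.15, which also passed, so these fits are not separate checks. Without replicate 1 of 53 h, which read 7.05 beside 5.17, H3-3A changed by -1.06 at 53 h. The arrays of 72 h did not overlap those of 0 h, by a margin smaller than the spread at 0 h.

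**Figure D4:**
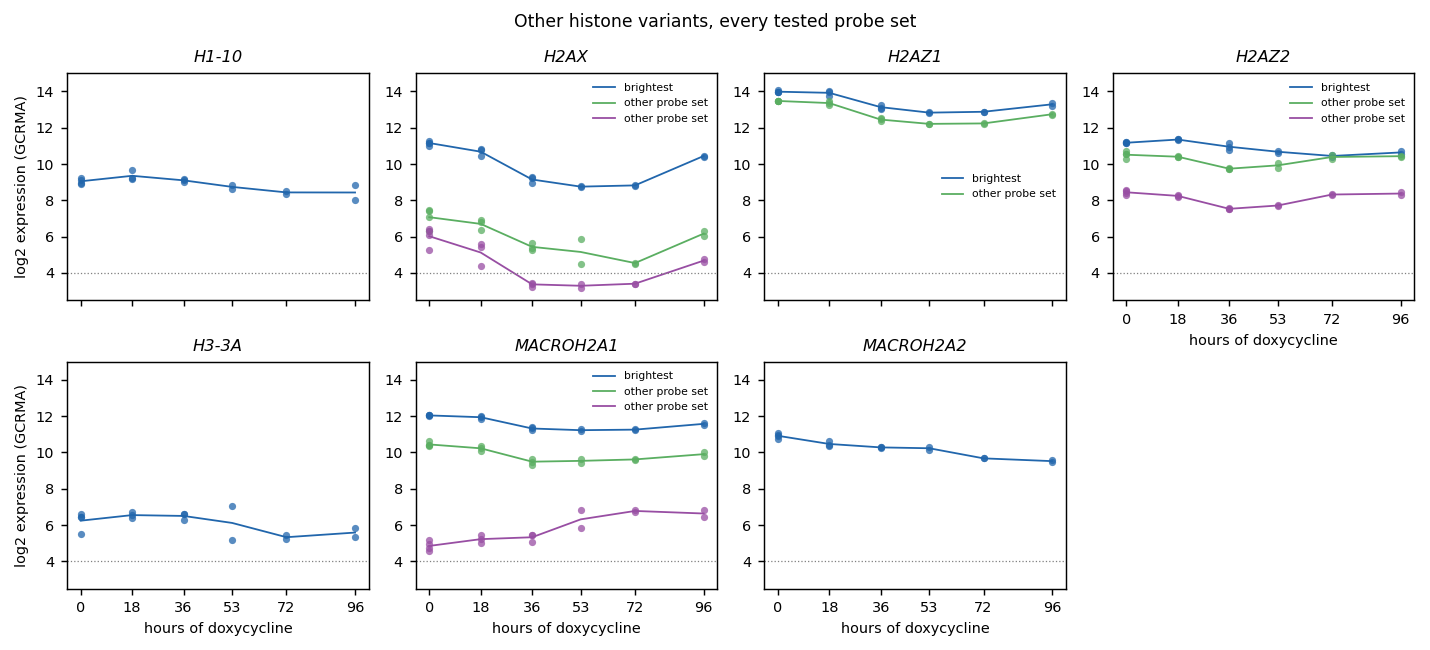
Log2 expression of every tested probe set of the 7 other histone variants against hours of doxycycline. Points are single arrays, lines join time means, the brightest probe set is blue and the dotted line is log2 4; H2AX falls from about its 0 h mean of 11.16 to 8.75 at 53 h and is back at 10.44 at 96 h, while the dim MACROH2A1 probe set rises.

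Of the 14 variant probe sets 0 rose and 3 fell at 18 h (2 of H2AX and MACROH2A2), when 12.8% of all probe sets were called higher and 14.0% lower. At 36 h 0 rose and 11 fell, against 31.1% and 31.6% of all. At 53 h 1 rose and 11 fell, against 30.7% and 32.9%. At 72 h 1 rose and 10 fell, against 29.5% and 36.7%, and at 96 h 1 rose and 10 fell, against 24.1% and 34.0%. The 1 that rose was the dim MACROH2A1 probe set. Their median changes from 18 to 96 h were -0.11, -0.81, -0.77, -0.87 and -0.64, beside -0.24, 1.14, 1.15, -0.06 and -0.97 for the cluster probe sets. Taking 1 probe set per gene, the brightest, 5 of 7 variants fell at 36 and 53 h and 6 of 7 at 72 and 96 h. MACROH2A1 is 1 of those that fell each time, although 1 of its probe sets rose from 53 h on. The same count for cluster genes was 7 of 10 higher at 36 h, 8 of 10 at 53 h and 4 of 10 lower at 96 h. By the F test 13 of 14 variant probe sets changed, against 81.1% of all probe sets. The difference between the 2 classes as such was not tested.

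Between 72 and 96 h every called cluster probe set was lower and every called variant probe set higher. Of the cluster probe sets 0 rose and 2 fell, H2AC6 by 2.35 ± 0.74 (limma adjusted p = 0.0337) and H2BC5 by 1.78 ± 0.58 (limma adjusted p = 0.03992), when 14.5% of all probe sets were called higher and 10.3% lower. The arrays of the 2 times did not overlap for either gene. H2BC21 and H1-2 had changes of -1.46 and -1.24 that did not pass (limma adjusted p = 0.1779 and 0.106). The median over the cluster was -0.81, against 0.01 for all probe sets. With the replicate block 5 cluster probe sets fell, among them H2BC12 (-0.78, adjusted p = 0.01339) and H2BC12L (-0.81, adjusted p = 0.02748). Neither H2AC6 (-2.07 to -2.63) nor H2BC5 (-1.63 to -1.92) kept its call without any 1 array of 72 or 96 h. Without replicate 2 of 96 h H2AC25 was called instead (-1.07). Leaving out replicate 2 of 36 h or either array of 53 h lost H2BC5 alone, and leaving out replicate 1 of 18 h gave 6. With arrays 2 and 3 averaged 1 fell, and H2BC5 no longer passed (adjusted p = 0.05204). Of the variant probe sets 6 rose and 0 fell, with a median of 0.27 (limma called none of these 14 lower at an unadjusted p under 0.05 either). They were the 3 of H2AX, with the brightest up by 1.62 ± 0.14 (limma adjusted p = 3.167e-06), the 2 of H2AZ1 (0.41 and 0.51) and the brightest of MACROH2A1 (0.32). Without replicate 1 of 72 h or replicate 1 of 96 h, 3 rose. The brightest H2AZ1 probe set was lost without replicate 1 of 96 h (0.32), and that of MACROH2A1 without replicate 1 of 72 h (0.27) or replicate 2 of 96 h (0.26). For the counts under alternative fits no share of all probe sets is given here. H2AX stayed below its 0 h level, as given above for 96 h.

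Genes that make, process and load histones were read beside them. SLBP, which binds the histone stem-loop and is needed to form the mature mRNA, read 11.20, 11.32, 11.37 and 11.64 at 0 h, 9.85, 9.77 and 9.88 at 36 h, and 10.72 and 10.79 at 96 h. No treated array overlapped those of 0 h. SLBP fell by 0.92 ± 0.11 at 18 h (limma adjusted p = 7.669e-05), by 1.55 ± 0.11 at 36 h (limma adjusted p = 5.989e-08) and by 0.63 ± 0.12 at 96 h (limma adjusted p = 0.0006032). NPAT, the CDK2 substrate that activates cluster transcription, fell by 0.82, 0.99, 0.87, 0.59 and 0.89 from 18 to 96 h. CASP8AP2 (FLASH), which acts in histone pre-mRNA processing, fell by 1.20, 1.28 and 1.14 at 36, 53 and 72 h and showed -0.40 at both 18 and 96 h without passing (limma adjusted p = 0.06163 and 0.05812). CDK2 fell by 2.66 ± 0.13 at 36 h. E2F1 fell by 3.12 at 36 h, SNRPB by 1.33 and CSTF2 by 1.40.

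Of 33 genes listed for histone mRNA synthesis and 3′ processing 24 were tested. Of these 0 rose and 10 fell at 18 h, 3 rose and 16 fell at 36 h, 1 rose and 14 fell at 53 h, 1 rose and 17 fell at 72 h, and 1 rose and 14 fell at 96 h. Of all probe sets, 14.0%, 31.6%, 32.9%, 36.7% and 34.0% were called lower at these times. The list medians were -0.32, -0.83, -0.86, -0.88 and -0.48, beside 0.01, 0.01, -0.01, -0.08 and -0.10 for all probe sets. Of 42 histone chaperones and assembly factors 39 were tested, and 4 rose and 25 fell at 36 h, with a median of -0.69, and 3 rose and 28 fell at 53 h, with a median of -1.01. At 18 h 2 rose and 12 fell, at 72 h 2 rose and 30 fell, and at 96 h 1 rose and 31 fell, to be read against the same shares of all probe sets. Among them ASF1B, a chaperone that hands new H3 and H4 to replicating chromatin, read 7.71 to 7.95 at 0 h, 4.07, 4.08 and 4.47 at 36 h and 7.31 and 7.28 at 96 h. ASF1B fell by 3.62 ± 0.16 at 36 h (limma adjusted p = 1.343e-09) and by 0.53 ± 0.18 at 96 h (limma adjusted p = 0.01982). RUVBL2, of the complexes that exchange H2A.Z, fell by 0.73 at 36 h, and MCM2, which also binds H3 and H4 ahead of the fork, by 3.50.

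CENPA, the centromeric H3 variant, lies outside the symbols used here and was read beside OIP5, which helps to load it. CENPA read 6.58, 6.20, 6.38 and 6.32 at 0 h, 4.74, 5.55 and 5.54 at 36 h, 2.86 and 2.74 at 72 h, and 5.23 and 4.84 at 96 h. It fell by 1.09 ± 0.20 at 36 h (limma adjusted p = 0.0003077), and its 72 h arrays were below log2 4, so that the fall of 3.57 there is bounded by background. CENPA then rose by 2.23 ± 0.26 from 72 to 96 h (limma adjusted p = 3.914e-05). OIP5 fell by 2.53 ± 0.13 at 36 h and by 5.03 ± 0.15 at 72 h (limma adjusted p = 1.77e-11).

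The S-phase genes of DNA replication set the cluster rise beside the cycle. Of 44 listed, 41 were tested, and 0 rose and 32 fell at 18 h, when 14.0% of all probe sets were called lower. At 36 h 0 rose and 41 fell (31.6% of all were lower) with a median of -2.57, at the time when 8 of 11 cluster histone probe sets had risen. At 72 h 0 rose and 41 fell (36.7% of all), with a median of -2.99, and at 96 h 0 rose and 40 fell (34.0% of all), with a median of -1.07. GINS4, PRIM1, TYMS and CHEK1, of the replicative helicase, primase, thymidylate synthesis and the replication checkpoint, fell by 3.81, 1.97, 2.04 and 2.25 at 36 h. From 72 to 96 h, 40 of the 41 rose and 0 fell, with a median of 1.97, in the interval in which the cluster histone median was -0.81. The chaperone list had 22 higher and 2 lower in that interval, and the mRNA processing list 12 higher and 1 lower, when 14.5% of all probe sets were called higher and 10.3% lower.

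**Figure D5:**
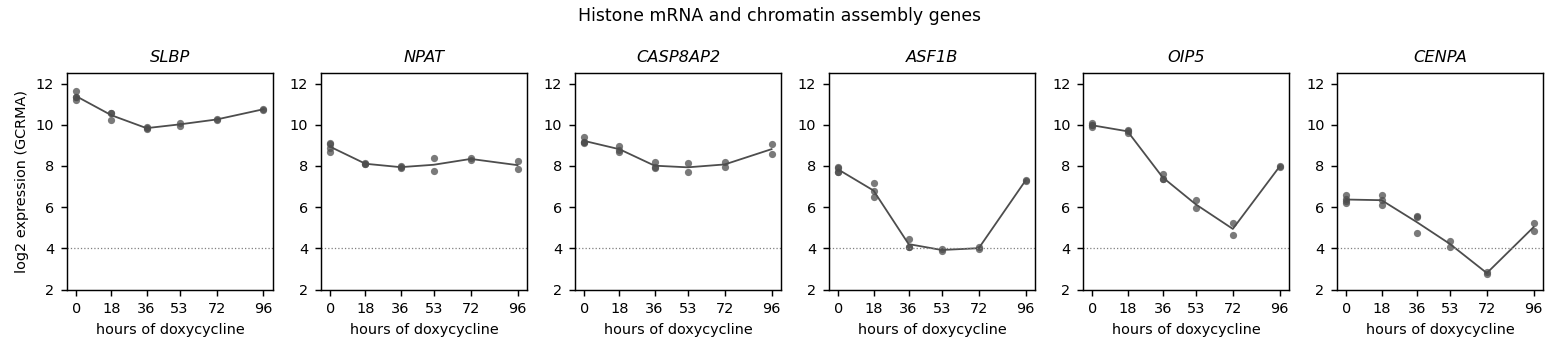
Log2 expression of SLBP, NPAT and CASP8AP2 (histone mRNA synthesis and processing), ASF1B and OIP5 (assembly) and CENPA (centromeric H3) against hours of doxycycline. Points are single arrays, lines join time means and the dotted line is log2 4; all 6 genes have their 36 h arrays below every 0 h array, and NPAT is the one without a called rise from 72 to 96 h.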

How the data were processed

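Total RNA was labelled with the Affymetrix One Cycle kits, per the labels' protocols, and 16 arrays were measured. The authors deposited 1 table of log2 values, for which the submitters' processing notes name GCRMA; version and settings: not given in the sources used here. No column belonged to another sample (0 columns). Arrays give no read depth, so their number limits the precision. The probe annotation gave 1 symbol to 19070 of 22277 probe sets, several to 1043 and none to 2164, and only probe sets with 1 symbol could be members. Group means were fitted to all 16 arrays with limma 3.58.1 in R 4.3.3 (10 residual degrees of freedom, trended eBayes), on the 12257 non-control probe sets at log2 4 or more on at least 2 arrays. Benjamini-Hochberg adjustment ran over all of these, with a threshold of 0.05. The fit was tested on simulated data with independent arrays. That test does not cover arrays that share an RNA, as arrays 2 and 3 may. A gene is described by its brightest probe set, and all tested probe sets are counted. Named were every tested variant, the 5 highest and 5 lowest passing cluster genes of each comparison, 4 genes of each list with the smallest adjusted p at 72 h, and SLBP, NPAT, CASP8AP2, CENPA and FLI1. Deviations from group means of same-numbered 0, 18 and 36 h arrays correlated at 0.191 to 0.581 in all pairs. Differently numbered arrays were not compared in this way, and arrays 2 and 3 of these times lay close together. The correlations therefore cannot show that the numbers pair the arrays. A replicate block, which assumes such pairing, was run as an alternative. It extends the pairing to the later times, where no correlation was taken, and the main fit leaves pairing out. Other alternatives were the filter, the floor, a second quantile normalization, array weights, probe set types, gene summaries, averaging arrays 2 and 3, and leaving out each array. Members and lists were chosen with earlier results of these data known. Figures were drawn in Python 3.11.15 with matplotlib 3.10.9.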

Additional observations from a re-analysis of the deposited data

Results flagged for a closer look

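At 0 h, 34 genes were checked for 1 array standing apart from the other 3, and 3 had one, where chance flags about 1 in 20. H2AZ1 was highest alone on replicate 3, at 14.08. H3-3A was lowest alone on replicate 4, at 5.52. CASP8AP2 was highest alone on replicate 1, at 9.40.

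For H2AC6 and H2BC5 the changes from 0 h had opposite signs at 72 and 96 h, and the difference between the times was tested directly. It was -2.35 for H2AC6 and -1.78 for H2BC5, and both passed. Neither passed with no filter on low values (adjusted p = 0.07466 and 0.08665) or without any 1 of the arrays of 72 or 96 h. The 72 h and 96 h changes of each gene from 0 h did not pass on their own. H1-2 (0.73 and -0.51) and H2AC25 (0.20 and -0.40) also changed sign between these times, and their differences did not pass.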

How the results depend on the processing

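Of 2898 alternative values for single genes, 2766 kept direction and side of the threshold, 77 lost the call, 48 gained one and 7 reversed. The reversed ones were all MACROH2A1. Without probe sets of the shared or cross-matching types MACROH2A1 changed by 0.48, 1.46, 1.93 and 1.79 at 36, 53, 72 and 96 h and by -0.14 from 72 to 96 h, and by 0.11 (72 h) and 0.26 (96 h) as a mean of its probe sets. Of the cluster genes, that first alternative keeps only H1-2, H2AC25 and H2BC12. Of the variants it keeps 1 probe set each of H2AZ1, H2AZ2, MACROH2A1 and MACROH2A2. It left 2, 3 and 0 cluster probe sets higher at 36, 53 and 72 h, and 0 lower at 72 h, 1 at 96 h and 0 from 72 to 96 h. Variants lower were then 1, 3, 3, 2 and 2 from 18 to 96 h, and 1 rose from 72 to 96 h. The F test called 3 cluster and 4 variant probe sets, which was all that remained. With 1 brightest probe set per gene, variants lower were 5, 5, 6 and 6 from 36 h on, higher 0 from 53 h on, 3 higher from 72 to 96 h and 6 by the F test. With probe set means they were 1, 5, 4, 5 and 5 lower from 18 h on, 0 higher from 53 h on, 2 higher from 72 to 96 h and 6 by the F test, with 1 cluster gene lower from 72 to 96 h. With no filter, 6, 2 and 6 cluster probe sets were lower at 36, 53 and 72 h and 0 from 72 to 96 h. At 36 h all 11 cluster probe sets past the filter had positive changes, so the 6 were among those near background that failed it. Without the filter 1 and 2 variants were higher at 36 and 72 h. With array weights, 5 cluster probe sets were lower at 18 h, 4 higher at 72 h and 4 lower from 72 to 96 h, while 3 variants were higher and 5 lower at 18 h and 1 higher at 36 h. With the replicate block, 1 variant was higher at 36 h and 5 cluster probe sets lower from 72 to 96 h, and beyond the calls given above it changed no other call of the named histone genes. With arrays 2 and 3 averaged, 1 cluster probe set was lower from 72 to 96 h. The cause of these shifts was not tested. The shares of all probe sets called in these alternative fits are not given here. The counts therefore cannot be read as particular to the histone genes.

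Leaving out 1 array, cluster probe sets ranged over 0 to 1 higher and 0 to 3 lower at 18 h, 5 to 10 higher at 53 h, 1 to 3 higher and 0 to 1 lower at 72 h, 2 to 7 lower at 96 h and 0 to 6 lower from 72 to 96 h. Variants ranged over 0 to 1 higher at 36 h and 3 to 6 higher from 72 to 96 h. The other counts stayed within 1.5 times. These counts too stand without the shares of all probe sets called in the same fits. Groups of 2 arrays fall to 1 array in these fits, which is assumed to vary like the other groups. The 31 untested cluster genes lay near background, which limits what this array type can show of them.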
